A study of Mus musculus with 6 samples.

Results

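The insulin signaling core genes are a set of 9 genes. *Insr*, *Irs1*, *Irs2*, *Pik3r1*, *Pdpk1*, *Akt1*, *Akt2* and *Foxo1* carry the insulin signal from the receptor to the nucleus, and *Trib1* encodes a pseudokinase. They were taken by gene name from a table of 57180 genes. All 9 were found there, and all 9 were among the 14151 genes with enough counted reads to be tested. Their mRNA was measured by RNA sequencing in primary hepatocytes, the main cells of the liver, isolated from male mice of the LOXP genotype and from male mice that lack STING in the liver (STINGLKO). LOXP mice carry the floxed STING gene, and STINGLKO mice were bred from floxed mice and Albumin-Cre mice, in which Cre is made in hepatocytes. Both groups held 3 libraries, and both were cultured with dexamethasone and serum and treated with 0.1 mM palmitic acid, a saturated fatty acid, for 24 h. The growth protocol names no added insulin, the labels give no age, and neither the labels nor the methods say whether the 3 libraries of a group came from separate mice, so a p-value measures only the spread between these libraries.

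Insulin binds the receptor encoded by *Insr*, whose kinase phosphorylates the adaptors IRS1 and IRS2. The adaptors recruit phosphoinositide 3-kinase (PI3K), a catalytic subunit held by a regulatory subunit such as the product of *Pik3r1*, and the lipid it makes brings the kinases PDK1 and AKT to the membrane. In hepatocytes AKT phosphorylates FOXO1 and keeps it out of the nucleus, so that insulin lowers glucose-producing genes and raises lipid-making genes, and the pseudokinase TRIB1 holds an E3 ligase to its substrates and lowers hepatic lipid synthesis. These are actions of proteins, largely through phosphorylation, and the libraries measured mRNA only.

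Counted reads summed to between 14726983 and 18536985 per library, and the 9 genes together took 0.0822% to 0.0918% of them. Counts were scaled to library size (CPM) with the factors of the trimmed mean of M-values (TMM), and groups were compared by edgeR's quasi-likelihood test. A gene was called at an adjusted p under 0.05 over all 14151 genes. *Sting1*, the targeted gene, had 19, 16 and 23 counts in LOXP replicates 1, 2 and 3 and 24, 23 and 15 in the STINGLKO replicates. Its log2 fold change was -0.078 (SE 0.298, adjusted p = 0.883 by edgeR), so the counts did not separate the genotypes, and the direction of each comparison rests on the labels, by which the groups are named here. The study reported by RT-PCR that this mRNA was lost in purified knockout hepatocytes, a loss that these counts did not show. A count over the whole gene cannot separate exons inside a floxed segment from those outside it. The first principal component separated the libraries labelled STINGLKO from those labelled LOXP, and LOXP replicates 1 and 2 lay farthest apart on the second component.

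Levels between genes were compared as FPKM, a unit that corrects counts for gene length and sequencing depth. *Akt1* was the most abundant of the 9, with a mean of 43.6 FPKM over the 6 libraries, above 92.4% of the tested genes. *Insr* followed with 12.2 FPKM and *Trib1* with 10.1 FPKM. The ranges of these 3 genes over the 6 libraries did not overlap with each other or with those of the genes after them. *Foxo1* (7.63 FPKM), *Akt2* (7.21), *Pik3r1* (6.39), *Pdpk1* (6.09) and *Irs2* (5.44) formed a group in which each gene's range overlapped that of the next. Within single libraries *Foxo1* exceeded *Akt2* in 5 of 6, and *Pdpk1* exceeded *Irs2* in 5 of 6. *Akt2* exceeded *Pik3r1* in 4 of 6, which were every STINGLKO library and LOXP replicate 2. *Pik3r1* exceeded *Pdpk1* in 3 of 6, which were the LOXP libraries, and lay below it in every STINGLKO library. The place of *Pik3r1* in this order thus differed between the groups. *Irs1* was lowest by a wide margin, at 0.572 FPKM, from 0.394 to 0.712, and only 16% of the tested genes had a lower mean.

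**Figure D1:**
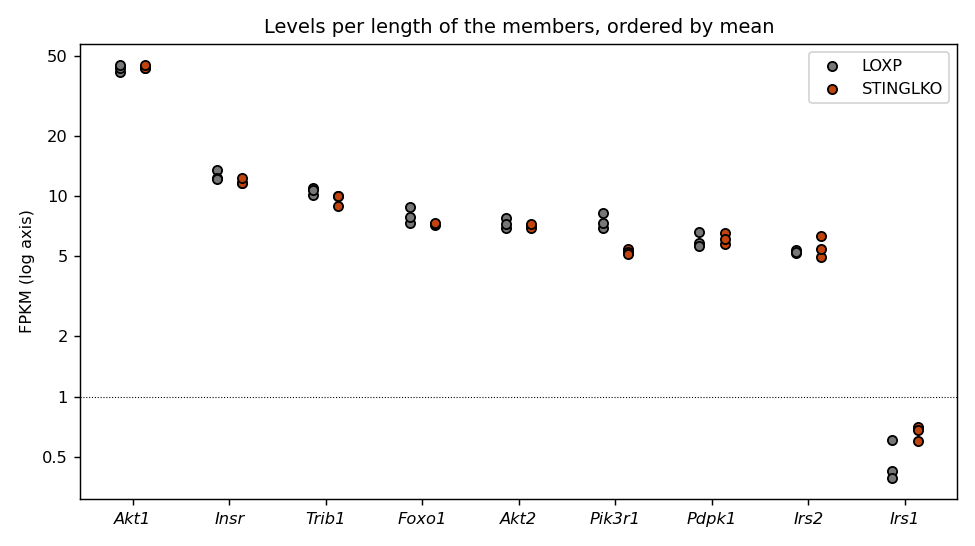
FPKM of the 9 genes on a log axis, with 1 point per library (grey, LOXP; orange, STINGLKO; n = 3 each), ordered by mean, and a dotted line at 1 FPKM. *Akt1* stands above all other members in every library, and *Irs1* is the 1 member below 1 FPKM.

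For the comparison of the groups, 1 member was lower in the libraries labelled STINGLKO and 0 were higher by edgeR's adjusted p, against 11.6% of all tested genes called lower and 11.5% called higher. The gene called was *Pik3r1*. At an unadjusted p under 0.05 there were 3 members, *Pik3r1*, *Foxo1* and *Trib1*, while 35.9% of all tested genes passed that threshold. The study's criteria added a log2 fold change beyond 1 in size and, in either group, a mean above 1 FPKM, and 0 members met these criteria, against 2.05% of all tested genes. The estimates of 7 members lay below 0 and those of 2 above, with a median of -0.093 (on the FPKM scale 5 lay below 0), where all tested genes had a median of -0.0021 and a middle range from -0.22 to 0.19. Normalized CPM did not overlap between the groups for 4 of 9 members, *Insr*, *Foxo1*, *Pik3r1* and *Trib1*, all lower in the libraries labelled STINGLKO. Of all tested genes, 40.7% did not overlap in normalized CPM. In FPKM the groups overlapped for *Insr* and *Foxo1* and did not overlap for *Pik3r1* and *Trib1*. A lower mRNA level in bulk RNA can come from fewer cells of a type or from less RNA per cell, which cannot be told apart here.

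**Figure D2:**
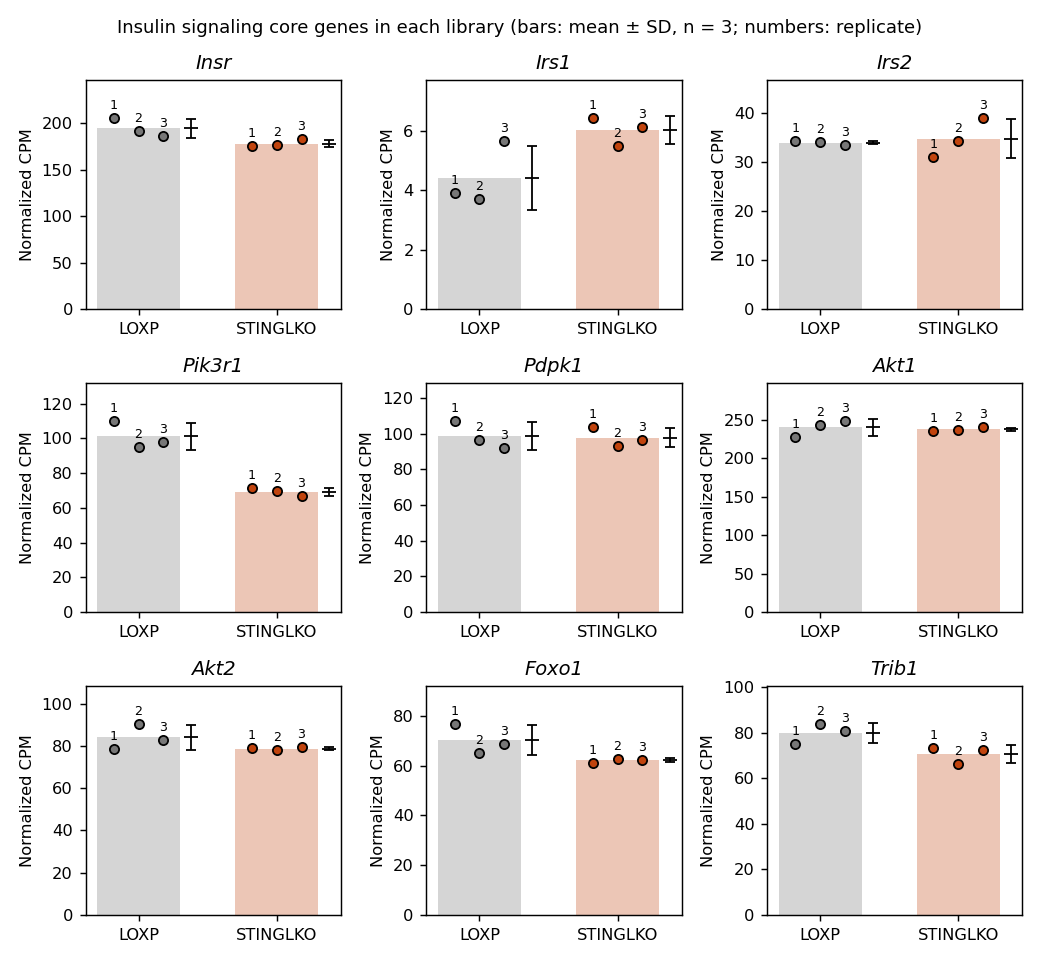
Normalized CPM of each gene in each library (points, numbered by replicate), with bars for the group mean and error bars of 1 SD (n = 3 per group), on axes that start at 0. *Pik3r1* shows the widest gap between the groups relative to their spread, and *Irs1* is the only gene at single-digit CPM.

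*Pik3r1* encodes the alpha regulatory subunit of PI3K, which stabilizes the catalytic subunit and binds phosphorylated IRS proteins. Its locus is listed at chr13:101817071-101904725. Its normalized CPM was 110.1, 95.2 and 98.0 in LOXP replicates 1, 2 and 3, and 71.5, 69.7 and 66.8 in the STINGLKO replicates. All 3 LOXP values lay above all 3 STINGLKO values, and the gap between the nearest libraries exceeded the range within either group. The mean fell from 101.1 ± 7.90 to 69.3 ± 2.33 CPM (SD, n = 3 each), and the fitted level fell by 31.4%. The log2 fold change was -0.54 (SE 0.0741, 95% interval -0.71 to -0.38, adjusted p = 0.0015 by edgeR's quasi-likelihood test). The exact two-sided permutation test of the 3 libraries against 3 gave p = 0.1, the smallest it allows. Per length, the level fell from 7.51 ± 0.675 to 5.27 ± 0.151 FPKM. The call held in each of 15 alternative settings, with log2 fold changes from -0.59 to -0.44 and adjusted p from 8.62e-08 to 0.00937. Genes that overlap its locus in the table, *Gm54655* and *Gm36638*, had 6 and 7 counts over all libraries, against 8152 for *Pik3r1*.

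The gene has a long and shorter protein forms made from separate start sites, and a count per gene does not separate them. Start sites were read from RefSeq promoter windows on GRCm38.p6, 250 bases before to 50 bases after the start, which cannot be placed on the coordinates of the table. Of the 9 members, 7 had a window, 13 windows in all, and *Insr* and *Trib1* had none. The motifs TGTTTTG (the insulin response sequence) and TGTTTAC (a FoxO element), both known from FOXO1-bound promoters, were searched on both strands together with the E-box CACGTG and the GC box GGGCGG. The shares of all 32851 windows of this length that held them were 6.28%, 3.65%, 7.15% and 35.7%, respectively. The *Pik3r1* windows are shown because this was the member that changed, with motif matches in capitals. The first lies at chr13:101768168-101768467 and the second at chr13:101692581-101692880, both on the minus strand, with start sites 75.6 kb apart.
Pik3r1 window 1: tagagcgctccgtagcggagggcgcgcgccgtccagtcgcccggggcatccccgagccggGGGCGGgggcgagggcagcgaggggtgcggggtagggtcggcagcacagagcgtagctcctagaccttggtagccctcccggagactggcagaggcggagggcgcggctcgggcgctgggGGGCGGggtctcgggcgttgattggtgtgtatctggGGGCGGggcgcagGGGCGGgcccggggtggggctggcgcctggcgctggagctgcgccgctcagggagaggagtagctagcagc
Pik3r1 window 2: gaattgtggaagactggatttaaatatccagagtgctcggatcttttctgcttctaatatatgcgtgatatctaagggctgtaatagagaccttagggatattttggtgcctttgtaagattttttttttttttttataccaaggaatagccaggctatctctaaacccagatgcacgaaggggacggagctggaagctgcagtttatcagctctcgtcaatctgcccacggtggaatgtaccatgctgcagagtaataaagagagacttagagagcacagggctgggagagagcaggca
The first window was 75.7% G or C, held 34 CpG dinucleotides and matched the GC box 4 times, at -190, -70, -34 and -21 from the start base. The second was 43.7% G or C, held 6 CpG dinucleotides and matched none of the motifs. Medians over all windows were 52.7% and 7.

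Among the genes with a mean above 1 FPKM, the 2 whose log2 CPM followed *Pik3r1* most closely over the 6 libraries were *Cfi*, which encodes complement factor I (Pearson r = 0.999, log2 fold change -0.37), and *mt-Rnr1*, the small ribosomal RNA of mitochondria (r = 0.998, log2 fold change -1.10). These are descriptions over libraries that share the same group difference, and 401 of 11101 genes had an r above 0.95.

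*Insr* encodes the insulin receptor and lies at chr8:3172061-3329617. Its normalized CPM was 206, 192 and 186 in LOXP replicates 1, 2 and 3, and 175, 176 and 183 in the STINGLKO replicates. Every LOXP library was above every STINGLKO library, but the closest pair, LOXP replicate 3 and STINGLKO replicate 3, differed by less than the LOXP libraries did among themselves. In log2 terms the difference was -0.13 (SE 0.0574, 95% interval -0.26 to 0.0038, adjusted p = 0.1503 by edgeR), and the gene was not called. The interval of the ratio, 0.836 to 1.003 of LOXP, did not reach the estimate of *Pik3r1*. In FPKM the groups of *Insr* overlapped, with 12.29 in STINGLKO replicate 3 and 12.23 and 12.13 in LOXP replicates 2 and 3.

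*Irs1* and *Irs2* encode the main adaptors between the receptor and PI3K, at chr1:82210822-82269137 and chr8:11034681-11058458. *Irs1* had 62, 53 and 86 counts in LOXP replicates 1, 2 and 3 and 101, 102 and 105 in the STINGLKO replicates. In normalized CPM these were 3.91, 3.71 and 5.66 against 6.44, 5.50 and 6.12. LOXP replicate 3 lay within the STINGLKO range and apart from the other LOXP libraries, and the coefficient of variation was 24.3% in LOXP and 7.89% in STINGLKO libraries. Its estimate, a log2 fold change of 0.44, was the largest above 0 among the members, with a wide error (SE 0.193, 95% interval -0.0006 to 0.88, adjusted p = 0.140 by edgeR). Without LOXP replicate 3 it was 0.66 and the adjusted p 0.0428, so this library decides whether *Irs1* was called higher.

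*Irs2* had 34.3, 34.1 and 33.6 CPM in LOXP replicates 1, 2 and 3, and 31.1, 34.3 and 39.1 in the STINGLKO replicates. The LOXP values were nearly equal and lay inside the STINGLKO range. The log2 fold change was 0.035 (SE 0.0919, 95% interval -0.17 to 0.24, adjusted p = 0.826 by edgeR), and it was -0.053 without STINGLKO replicate 3, so no direction is given. The ratio of *Irs2* to *Irs1* in FPKM was 12.7, 13.3 and 8.59 in the LOXP libraries and 6.99, 9.003 and 9.23 in the STINGLKO libraries. *Irs2* was thus the more abundant adaptor in every library, and the ratios of the groups overlapped.

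The *Irs1* and *Irs2* windows are shown because the same pair of motifs lay side by side in both, with matches to the motifs in capitals. They lie on the minus strand at chr1:82291390-82291689 and chr8:11008880-11009179 of GRCm38.p6.
Irs1: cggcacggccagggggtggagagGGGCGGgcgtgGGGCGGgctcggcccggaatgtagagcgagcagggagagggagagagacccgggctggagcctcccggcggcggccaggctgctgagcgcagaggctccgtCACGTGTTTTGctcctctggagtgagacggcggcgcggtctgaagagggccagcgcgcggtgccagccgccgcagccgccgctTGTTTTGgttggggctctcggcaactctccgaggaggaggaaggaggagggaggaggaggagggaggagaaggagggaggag
Irs2: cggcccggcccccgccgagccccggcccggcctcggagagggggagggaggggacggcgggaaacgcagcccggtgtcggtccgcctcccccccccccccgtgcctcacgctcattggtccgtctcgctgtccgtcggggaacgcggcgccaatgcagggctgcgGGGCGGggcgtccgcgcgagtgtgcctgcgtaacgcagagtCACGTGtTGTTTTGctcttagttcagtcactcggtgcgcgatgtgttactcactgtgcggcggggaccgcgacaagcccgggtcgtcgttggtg
In *Irs1* the E-box at -115 overlapped an insulin response sequence at -111, with a second insulin response sequence at -32 and GC boxes at -227 and -216. In *Irs2* the E-box at -44 was followed by an insulin response sequence at -37, with a GC box at -85. An E-box starting within 10 bases of an insulin response sequence was found in 9 of 32851 windows, 0.0274%, and 2 of the 9 were those of *Irs1* and *Irs2*. This pair was looked for after the windows had been read, and a match is a description of letters, not a site in use. The windows were 71.3% and 72% G or C, with 28 and 41 CpG dinucleotides.

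*Pdpk1* encodes PDK1, the kinase that phosphorylates AKT in its activation loop, at chr17:24292654-24369898. It had 107, 96.8 and 92.2 CPM in LOXP replicates 1, 2 and 3, and 104, 93.1 and 96.7 in the STINGLKO replicates. The groups covered nearly the same range. The log2 fold change was -0.013 (SE 0.0770, 95% interval -0.19 to 0.16, adjusted p = 0.924 by edgeR), and its sign changed on the FPKM scale and without LOXP replicate 1 or STINGLKO replicate 2.

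*Akt1*, at chr12:112620255-112641318, and *Akt2*, at chr7:27290977-27340251, encode the kinases that pass the signal on, of which AKT2 is known for the metabolic actions of insulin. *Akt1* had 228, 244 and 249 CPM in LOXP replicates 1, 2 and 3, and 235, 237 and 240.2 in the STINGLKO replicates. All STINGLKO values lay inside the LOXP range. Its log2 fold change was -0.016 (SE 0.0527, 95% interval -0.14 to 0.10, adjusted p = 0.863 by edgeR), the narrowest interval of the 9, and its sign changed on the FPKM scale and without LOXP replicate 3. *Akt2* had 78.7, 90.5 and 82.8 CPM in the LOXP replicates, and 78.8, 77.9 and 79.6 in the STINGLKO replicates. LOXP replicate 2 was the highest of the 6 libraries and LOXP replicate 1 lay within the STINGLKO range. This gave *Akt2* a log2 fold change of -0.093 (SE 0.0698, 95% interval -0.25 to 0.066, adjusted p = 0.387 by edgeR). *Akt1* was the more abundant of the pair per length, with an *Akt2* to *Akt1* ratio of 0.167, 0.180 and 0.162 in the LOXP libraries and 0.163, 0.159 and 0.161 in the STINGLKO libraries, which overlapped.

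*Foxo1*, at chr3:52175757-52260642, encodes the transcription factor that AKT restrains. Its normalized CPM was 76.9, 65.2 and 68.8 in LOXP replicates 1, 2 and 3, and 61.3, 62.7 and 62.5 in the STINGLKO replicates. The 3 STINGLKO values lay close together and below every LOXP value, and LOXP replicate 1 stood highest. *Foxo1* thus had a log2 fold change of -0.18 (SE 0.0761, 95% interval -0.35 to -0.0040, adjusted p = 0.132 by edgeR), an estimated decrease of 11.6% that was not called. In FPKM the groups of *Foxo1* overlapped, with 7.366 in STINGLKO replicate 3 and 7.304 in LOXP replicate 2.

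*Trib1*, at chr15:59520199-59528948, encodes the pseudokinase that brings the ligase COP1 to C/EBP alpha. It had 75.1, 83.9 and 80.5 CPM in LOXP replicates 1, 2 and 3, and 73.2, 66.1 and 72.4 in the STINGLKO replicates. The groups did not overlap, with LOXP replicate 1 and STINGLKO replicate 1 the closest pair. The log2 fold change was -0.18 (SE 0.0732, 95% interval -0.34 to -0.010, adjusted p = 0.119 by edgeR). *Foxo1* and *Trib1* were not called in any of the 15 alternatives either, where their adjusted p ran from 0.0904 to 0.293 and from 0.0737 to 0.331.

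**Figure D3:**
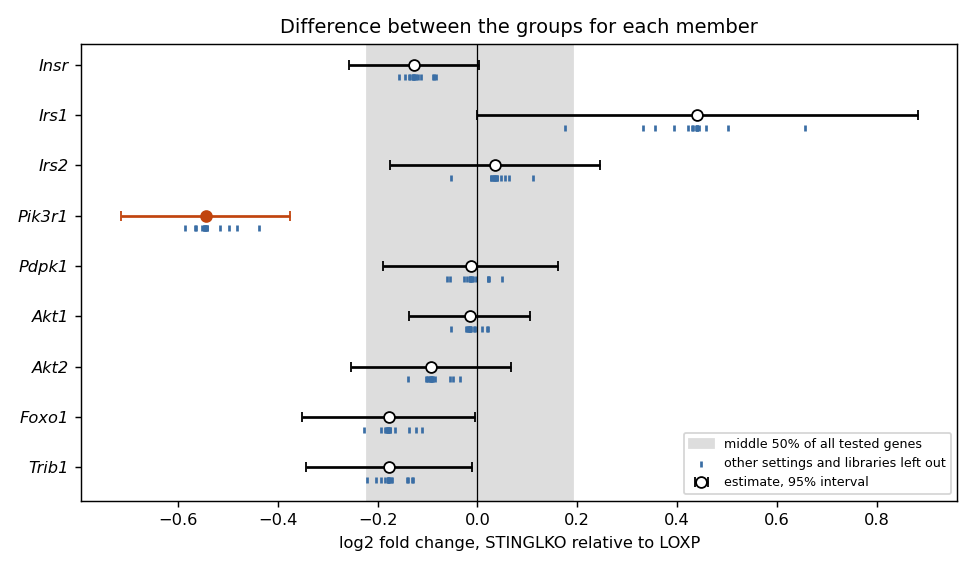
Log2 fold change of each gene in the libraries labelled STINGLKO relative to LOXP (circles, with 95% intervals; filled where the adjusted p was under 0.05), with the 15 alternative settings as blue ticks and the middle 50% of all tested genes as a grey band. Only the interval of *Pik3r1* lies wholly outside the band, and the ticks of *Irs1* spread from 0.18 to 0.66.

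*Pik3ca*, a catalytic partner of *Pik3r1*, had a log2 fold change of -0.0064 (adjusted p = 0.977 by edgeR). *Pik3cb*, another catalytic subunit, named after its values had been seen, had a log2 fold change of 0.27 (adjusted p = 0.1085 by edgeR). It was more abundant, at means of 11.3 FPKM in LOXP and 14.0 FPKM in STINGLKO libraries, against 4.29 and 4.39 for *Pik3ca*. A ratio to *Pik3ca* thus describes 1 pair of subunits only. The ratio of *Pik3r1* to *Pik3ca* in FPKM was 1.95, 1.45 and 1.89 in LOXP replicates 1, 2 and 3, and 1.09, 1.32 and 1.23 in the STINGLKO replicates. The ratio was lower in every STINGLKO library than in every LOXP library, with LOXP replicate 2 nearest to the STINGLKO values. The difference of the ratio itself was not tested.

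**Figure D4:**
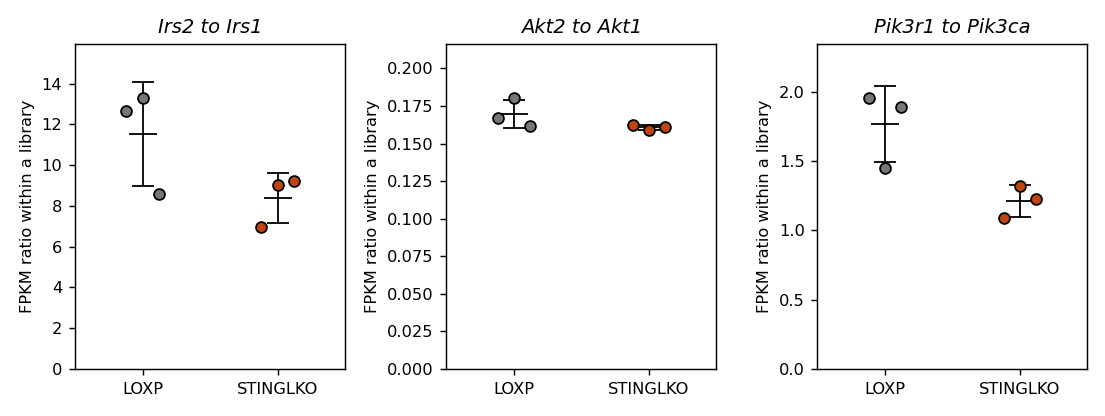
Ratios of FPKM within each library (points; horizontal ticks, group means; error bars, 1 SD; n = 3 per group), on axes that start at 0, for *Irs2* to *Irs1*, *Akt2* to *Akt1* and *Pik3r1* to *Pik3ca*. Of these, the *Pik3r1* to *Pik3ca* ratio is the 1 that does not overlap between the groups.

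The members were next set beside the other genes of the pathway, 105 genes in 10 lists by role, of which 100 were tested. Without the 9 members, 91 were tested, 43 with estimates above 0 and 48 below, and 9 were called higher and 16 lower, 27.5% in all. Of all tested genes 23.1% were called in either direction. The members had 1 of 9 called, 11.1%. These counts describe the lists, and the difference between them was not tested.

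At the receptor, where *Insr* was not called, 6 of 9 tested genes were, 2 higher and 4 lower, and the median of the list was -0.15. This was 66.7% of the list, against 23.1% of all tested genes. The list was made of receptors and of proteins chosen as brakes at the receptor. Its 3 called genes with the largest changes encode proteins that restrain receptor signaling or clear insulin or a related ligand. *Ceacam1*, which promotes insulin clearance in the liver, had a log2 fold change of -0.58 (adjusted p = 0.00217), *Ptprf*, a receptor tyrosine phosphatase, -0.47 (adjusted p = 0.00208) and *Igf2r*, which takes up IGF2 for degradation, -0.41 (adjusted p = 0.00217), all by edgeR. The 2 called higher were *Grb10* and *Ptpn1*, both inhibitors of receptor signaling, at 0.33 and 0.24, and *Enpp1* was the fourth called lower. The last 3 were named after their values had been seen. In all 9 tested genes of the list, *Insr* included, normalized CPM did not overlap between the groups, against 40.7% of all tested genes. This depended on the scale and on small gaps. *Insr* overlapped in FPKM, and *Grb14* had 49.72 CPM in LOXP replicate 2 and 49.64 in STINGLKO replicate 2. *Igf1r* had only 20 to 51 counts per library. *Grb14* and *Igf1r* were named after their values had been seen.

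Among the adaptors, 1 of 12 tested genes was called, *Cbl*, a ubiquitin ligase, with a log2 fold change of 0.24 (adjusted p = 0.0349 by edgeR), and its call was lost in 9 of 15 alternatives. Of 9 tested PI3K subunits and lipid phosphatases, *Pik3r1* was the 1 called. Of 12 genes of AKT, its activators and phosphatases, 1 was called, *Ppp2ca*, a catalytic subunit of protein phosphatase 2A, at -0.18 (adjusted p = 0.0407 by edgeR), and its call was lost in 10 of 15 alternatives. The adaptor list and the list of AKT, its activators and phosphatases thus held 1 call each. This was 8.33% of their tested genes, against 23.1% of all tested genes.

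Downstream of AKT, 4 of 16 tested genes were called, 3 higher and 1 lower, which was 25% against 23.1% of all tested genes. *Deptor*, an inhibitor of mTOR, had a log2 fold change of -0.41 (adjusted p = 0.00203), *Eif4e*, which binds the mRNA cap, 0.40 (adjusted p = 0.00233), and *Gsk3a*, a glycogen synthase kinase, 0.33 (adjusted p = 0.00513), by edgeR. The fourth, named after its values had been seen, was *Tbc1d4* at 0.87, with means of 0.351 and 0.657 FPKM. Of the FoxO factors, *Foxo3* (0.051) and *Foxo4* (-0.16) were not called, as *Foxo1* was not.

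The list of FoxO1 and insulin target genes of hepatocytes had 10 of 14 tested genes called, 9 lower and 1 higher, with a median of -0.65. This was 71.4% called, against 23.1% of all tested genes. *Insr* and *Irs2*, which the list also holds, were among the 4 not called. *Igfbp1*, a FOXO1 target, had 418, 570 and 501 CPM in LOXP replicates 1, 2 and 3, and 190, 196 and 177 in the STINGLKO replicates. Its log2 fold change was -1.40 (adjusted p = 8.81e-05 by edgeR). *Pck1*, a rate-limiting enzyme of gluconeogenesis, had 159, 184 and 442 counts against 24, 23 and 43, a log2 fold change of -3.30 (adjusted p = 0.00162 by edgeR). Both genes were lower in every STINGLKO library than in every LOXP library.

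The gene of this list called higher, named after its values had been seen, was *Fasn*, the fatty acid synthase. It had 157, 145 and 155 CPM in LOXP replicates 1, 2 and 3 and 333, 349 and 331 in the STINGLKO replicates, a log2 fold change of 1.15 (adjusted p = 9.34e-06 by edgeR). Among the genes called lower were also, named after their values had been seen, *G6pc1*, *Ppargc1a*, *Pdk4*, *Sesn1*, *Bcl6* and *Klf15*. Of these, *G6pc1* and *Ppargc1a* were below 1 FPKM in both groups. Their means were 0.934 and 0.374 FPKM in LOXP and 0.118 and 0.167 FPKM in STINGLKO libraries. *Srebf1*, the regulator of lipid synthesis genes, had a log2 fold change of 0.10 (adjusted p = 0.388 by edgeR) and was not called. Insulin action itself was not measured, and whether it differed between the groups was not tested.

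The window of *Igfbp1* is shown because its insulin response sequence is a textbook FOXO1 site. It lies on the plus strand at chr11:7197537-7197836 of GRCm38.p6, with the match in capitals, as its reverse complement, at -108 from the start base.
Igfbp1: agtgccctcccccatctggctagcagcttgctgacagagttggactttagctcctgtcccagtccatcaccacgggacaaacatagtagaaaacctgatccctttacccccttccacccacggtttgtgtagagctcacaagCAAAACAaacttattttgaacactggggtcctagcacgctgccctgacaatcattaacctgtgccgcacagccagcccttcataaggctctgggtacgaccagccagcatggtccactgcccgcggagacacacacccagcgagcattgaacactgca
Among the member windows, those of *Irs1* and *Irs2* held the same letters, on the plus strand of each gene, and the FoxO element matched once, in an *Akt1* window at -161.

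Of the Tribbles pseudokinases and TRIB1 partners, 0 of 7 were called by edgeR's adjusted p, against 23.1% of all tested genes. *Trib3*, the most abundant Tribbles gene of the list, had a log2 fold change of -0.093, *Cop1* -0.0072 and *Cebpa*, the target that TRIB1 brings to COP1, 0.27 (adjusted p = 0.0856 by edgeR). Among 8 SOCS feedback genes, *Socs2* was called lower, at -0.77 (adjusted p = 0.0018), and *Socs5* higher, at 0.52 (adjusted p = 0.00123), by edgeR. Of 12 genes of the Ras-MAPK arm, 1 was called, the phosphatase gene *Dusp6*, at 0.29 (adjusted p = 0.0278 by edgeR), and its call was lost without LOXP replicate 2, STINGLKO replicate 2 or STINGLKO replicate 3.

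**Figure D5:**
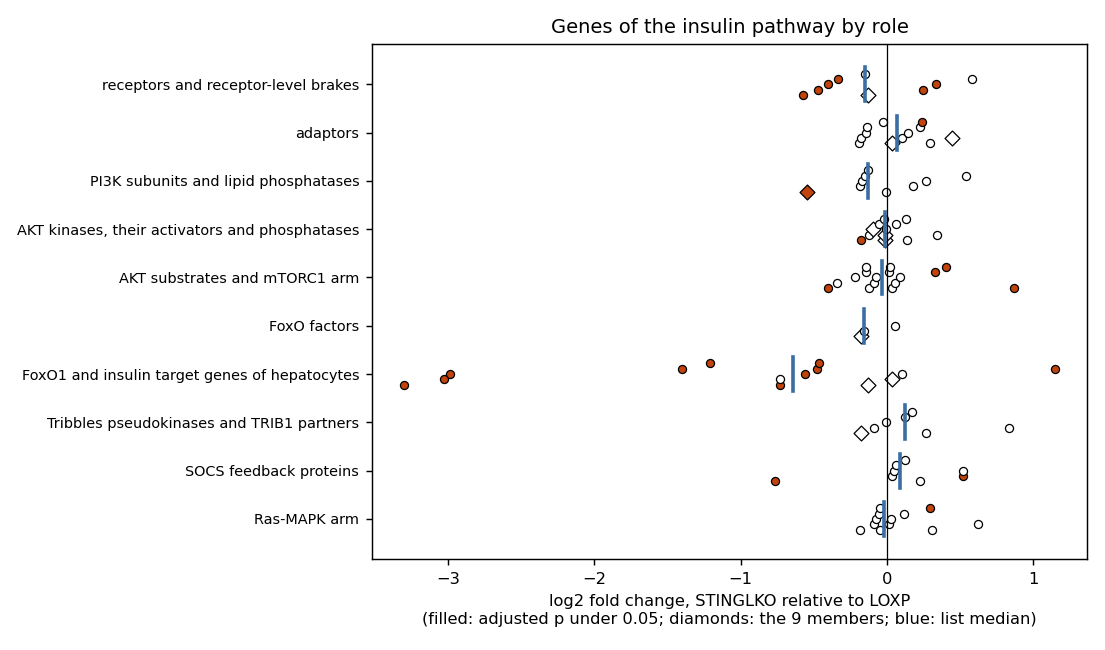
Log2 fold change, in the libraries labelled STINGLKO relative to LOXP, of each tested gene of the 10 lists by role, filled where the adjusted p was under 0.05, with the 9 members as diamonds and list medians as blue lines. *Insr* and *Irs2* stand in 2 lists each, and the target genes spread furthest, from -3.30 for *Pck1* to 1.15 for *Fasn*.

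Markers of cell types moved between the groups as well. Of 10 hepatocyte markers, all had estimates below 0 and 8 were called lower. Of all tested genes, 11.6% were called lower and 11.5% higher. The hepatocyte markers summed to 11310 to 11830 FPKM in LOXP and 9578 to 9713 FPKM in STINGLKO libraries. *Alb*, the albumin gene, was the most abundant of them, at a mean of 7106 FPKM. Macrophage and Kupffer cell markers summed to 55.9 to 62.1 FPKM against 40.2 to 45.7, mostly through *Cd68*, which fell from 37.5 to 21.1 FPKM, while of 9 tested genes 2 were called lower and the estimates of 4 lay above 0. Cholangiocyte markers summed to 119 to 140.2 FPKM against 61.8 to 72.8, mostly *Cldn4*, with 3 of 4 tested genes called lower and 1 higher. Endothelial markers, led by *Cdh5*, gave 28.4 to 30.2 against 26.2 to 28.6 FPKM, and stellate cell markers, led by *Sparc*, 9.11 to 10.9 against 10.4 to 11.1. All 8 lymphocyte markers were at 0 counts in every library, and the 6 neutrophil markers had 10 counts in total, with *Ly6g*, *Retnlg* and *Mpo* at 0. The hepatocyte, macrophage and cholangiocyte sums were lower in the STINGLKO libraries, as *Pik3r1* was, although the macrophage and cholangiocyte lists did not fall as a whole, and their part in its difference was not tested.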

How the data were processed

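Hepatocyte RNA was sequenced in 6 libraries, 3 per group, grouped by the labels. Per the labels' processing notes, fastp, HISAT2, StringTie, edgeR and GRCm39 were used. The counting tool, annotation and strand setting are not given in the sources used here, so overlapping and antisense genes cannot be told apart. The authors deposited raw read counts and FPKM values per gene. The FPKM values divide a count by 1 fixed gene length and the library's counted reads. Counts were filtered by filterByExpr (minimum count 10), normalized by TMM and tested with edgeR 4.0.16 (glmQLFit and glmQLFTest, two-sided) in R 4.3.3, with Benjamini-Hochberg adjustment over 14151 genes. Tests were checked on simulated data. Replicates differed by more than counting noise (chi-square per degree of freedom 7.20 to 15.4). Alternatives were DESeq2 1.42.0, 2 other scalings, the likelihood ratio test, 2 filters, a replicate block, limma 3.58.1 on log2(FPKM + 1) and log2(FPKM + 0.1), and each library left out. The median over all genes was added as a check of scaling after the data had been seen. The members and lists were chosen with earlier results of these data known. Genes named are the members, *Sting1*, per list the 3 called genes with the largest change and a mean FPKM above 1, the 2 genes most like a called member, 3 ratios and the most abundant marker of each cell type, and others are marked. A result that the rule would name is not reported here. *G6pc1* is listed as G6pc. No other column of per-sample values was present. Promoter windows came from RefSeq (GRCm38.p6), and figures from matplotlib 3.10.9 in Python 3.11.15.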

Additional observations from a re-analysis of the deposited data

How the results depend on the processing

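*Pik3r1* kept its call in all 15 alternatives, and *Insr*, *Akt2*, *Foxo1* and *Trib1* kept their direction without a call in all 15. *Irs1* was called in 1, without LOXP replicate 3 (log2 fold change 0.66, 1 member higher in place of 0). Estimates near 0 changed sign for *Irs2* (-0.053 without STINGLKO replicate 3), *Akt1* (0.020 with log2(FPKM + 1), 0.021 with log2(FPKM + 0.1), 0.010 without LOXP replicate 3) and *Pdpk1* (0.021 and 0.024 on the same FPKM scales, 0.049 without LOXP replicate 1, 0.022 without STINGLKO replicate 2). The cause was not tested. With 1 library left out, members called higher ran from 0 to 1, pathway genes called lower from 11 to 14 and higher from 5 to 10 (17 and 9 with all libraries), and all genes called lower from 1052 to 1515 and higher from 922 to 1510. The lowest pathway counts came without STINGLKO replicate 1 or 2 (lower) and 2 or 3 (higher), and the lowest counts over all genes without STINGLKO replicate 2. Leave-one-out log2 fold changes ran from -0.59 to -0.48 for *Pik3r1*, 0.33 to 0.66 for *Irs1*, -0.053 to 0.11 for *Irs2*, -0.054 to 0.010 for *Akt1* and -0.061 to 0.049 for *Pdpk1*. By adjusted p alone in place of the study's 3 criteria, 1 member was called. After each gene's group mean of log2 CPM was subtracted, the deviations of same-numbered replicates of the groups correlated at 0.12, 0.0834 and 0.0134. The numbers were thus not taken to pair the samples. With a replicate block 1 member was lower (*Pik3r1*, -0.54, adjusted p = 0.00314 by edgeR), 0 were higher, and pathway calls were 16 lower and 10 higher. The median of all genes stayed between -0.023 and 0.033 over all alternatives, and was -0.0095 and -0.0031 with upper-quartile and RLE factors. Depth limits *Irs1* most: its 53 to 105 counts give a counting error of 13.7% at the lowest.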
